A study of Mus musculus with 8 samples.

Results

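The 10 genes described here encode the cohesin complex, the proteins that load, hold or release it, and the insulator protein CTCF. They were chosen by name (Smc1a, Smc3, Rad21, Stag1, Stag2, Nipbl, Wapl, Pds5a, Pds5b and Ctcf) and make up 10 of the 55487 gene rows in each count file. Levels were measured by bulk RNA-seq in 8 libraries of sorted mouse haematopoietic stem cells (HSCs), the cells that renew themselves and give rise to all blood lineages. The labels put 4 libraries in the miR652-KD group, in which the microRNA miR-652 was knocked down, and 4 in the NTC group, a non-target control. The series concerns pseudouridine synthase 10 (Pus10) and the ageing of these cells. The labels give neither the knockdown method, the sort markers, the strain, age and sex of the mice, nor whether replicates came from separate animals, so p-values speak only of library-to-library spread, and some of it may be technical.

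Cohesin is a ring of SMC1A, SMC3 and RAD21 that binds a STAG subunit and holds sister chromatids together from DNA replication until mitosis. The same ring extrudes loops of chromatin, and CTCF bound to DNA stops the extrusion, which places the borders of chromosome domains. Cohesin genes, STAG2 above all, are recurrently mutated in human myeloid leukaemias, and loss of cohesin function in mouse HSCs is known to favour self-renewal over differentiation. MicroRNAs lower the stability or translation of transcripts that pair with their seed, the bases 2 to 8 from the 5′ end.

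Because the groups are labelled by knockdown of miR-652, both mature arms are shown, from RefSeq (GRCm38.p6), with the seed in capitals; the arms lie on chrX:142739020-142739043 and chrX:142739060-142739080, plus strand.
mmu-miR-652-5p: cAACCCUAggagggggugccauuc
mmu-miR-652-3p: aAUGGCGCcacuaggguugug
The DNA letters that pair with the seed are TAGGGTT for the 5p arm and GCGCCAT for the 3p arm. In the longest annotated 3′ UTR, 0 of the 10 genes held the 3p match, against 2.58% of 11615 tested protein-coding genes. The 5p match was held by 1 of the 10 genes, Pds5a, against 8.61% of the same 11615 genes. When any annotated 3′ UTR was counted, Smc1a also held the 5p match, against 9.47% of genes. That match lies in the main coding transcript of Smc1a, of 4691 bases, which is used below for levels per kb. The longest annotated 3′ UTR of Smc1a, of 1555 bases, belongs to another transcript and lacked the match. Both matches are shown with the pairing letters in capitals, from transcript sequences of GENCODE M21 on the sense strand.
Pds5a, bases 871 to 877 of a 3′ UTR of 4476 bases: gttttgttttTAGGGTTtgttttgttt
Smc1a, bases 854 to 860 of a 3′ UTR of 885 bases: gggacacagaTAGGGTTtatctaataa
A match is a description of the letters and does not show a site in use. As given below, neither Pds5a nor Smc1a passed the test between the groups.

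The files held 14.68 to 19.89 M counts in genes (M for mega) in miR652-KD libraries and 14.02 to 16.76 M in NTC libraries. Levels are counts per M (CPM) over all gene rows. The miR-652 hairpin had 5, 0, 0 and 0 counts in miR652-KD replicates 1 to 4 and 1, 0, 0 and 2 in NTC replicates 1 to 4, too few to check the knockdown. All 14 HSC markers looked at were detected, with summed levels of 3349 to 3470 CPM in miR652-KD and 3021 to 3778 CPM in NTC. By edgeR 0 of the 14 passed, 7 were fitted above 0 and 7 below, and 4 had an unadjusted p below 0.05, against 5.99% of all tested genes. Without overlap, Ly6a was higher in miR652-KD (316 to 490 against 240 to 296 CPM) and Kit lower (380 to 435 against 440 to 664 CPM). Each is 1 of 14, against 2.35% of all tested genes higher and 2.15% lower. Markers of other cell types were detected too. Of 12 macrophage and dendritic markers 7 could be tested. By the edgeR test given below 3 rose (H2-Aa, H2-Eb1 and Cd74), where 0.0279% of all tested genes passed higher. With H2-Ab1, 4 of the 7 were higher without overlap, against 2.35% of all tested genes. The sum was 2000.0 to 2467 CPM in miR652-KD against 855 to 1276 CPM in NTC. Most of it was these 4 genes. In miR652-KD replicate 1, Cd74, H2-Ab1, H2-Aa and H2-Eb1 had 969, 599, 522 and 329 of 2467 CPM. In NTC replicate 1 they had 382, 375, 286 and 120 of 1162 CPM. Of the defining macrophage genes in that list, Csf1r was at 8.18, 3.16, 0.352 and 1.15 CPM in miR652-KD and at 0 in all 4 NTC libraries, and Adgre1 reached 3.83 CPM in miR652-KD and 0.358 CPM in NTC. C1qa reached 18.3 CPM in miR652-KD and 19.9 CPM in NTC, C1qb reached 16.0 CPM in miR652-KD and 41.0 CPM in NTC, and Itgax and Siglech had at most 1.09 CPM in any library. Erythroid markers summed to 1798 to 4562 CPM in miR652-KD and 4194 to 7973 CPM in NTC, with 10 of 12 fitted below 0. Much of the miR652-KD sum was Car2, at 1760, 2147, 1889 and 2216 CPM in replicates 1 to 4. Car2 was fitted above 0, at a log2 fold change of 0.15. Hba-a1 had 2.18, 37.1, 65.8 and 1239 CPM in miR652-KD and 1013 to 2575 CPM in NTC. Hbb-bt and Alas2 were lower in miR652-KD without overlap, 2 of 12 genes against 2.15% of all tested genes. Neutrophil and monocyte markers summed to 702 to 5765 CPM in miR652-KD and 730 to 16003 CPM in NTC, with 11 of 11 tested genes fitted below 0. NTC replicates 3 and 4 stood apart in part of this list. S100a8 had 1547 and 1968 CPM there, where NTC replicates 1 and 2 had 2.89 and 23.3 CPM. Other genes of the list were high elsewhere too. Elane had 1920 CPM in miR652-KD replicate 1 and 983 CPM in NTC replicate 2. In NTC replicates 3 and 4 it had 1311 and 2535 CPM. Mpo was highest of the 8 libraries in miR652-KD replicate 1, at 1979 CPM. Results were also computed without NTC replicates 3 and 4 together, which keeps miR652-KD replicate 1 and NTC replicate 2. Of these erythroid and neutrophil markers 0 passed, and the part of any of these cells in the values below was not tested.

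None of the 10 genes passed the test between miR652-KD and NTC. Counts were fitted with edgeR's quasi-likelihood test over 14360 genes, all 10 among them, and a gene passed at a Benjamini-Hochberg adjusted p below 0.05. The share of all tested genes that passed was 0.0418%, with 0.0279% passing higher and 0.0139% passing lower in miR652-KD, and 0 of 10 is near that background. At an unadjusted p below 0.05 the count was also 0 of 10, where all genes gave 5.99%. DESeq2, which passed 0.425% of all genes, and limma-voom, which passed 0.0279%, likewise passed 0 of 10. The fitted log2 fold changes ran from -0.21 for Nipbl to 0.34 for Pds5b, with 3 above 0 and 7 below, and their median was -0.09, where that of all tested genes was -0.0043. The 95% intervals of all 10 genes lay between 0.643-fold and 1.84-fold of NTC (each interval taken by itself), so the intervals of this test did not reach a doubling or a halving for any of them.

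**Figure D1:**
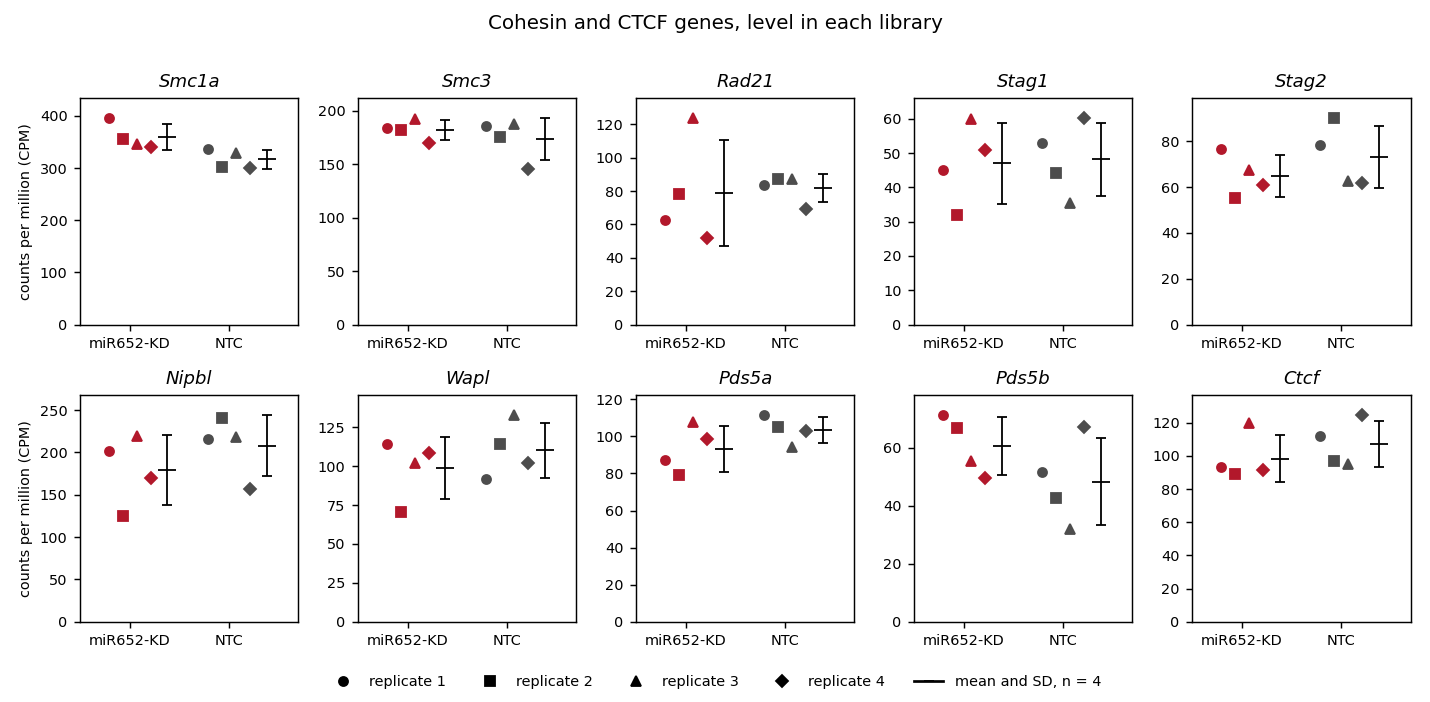
Level in CPM (vertical axes, from 0) of each of the 10 genes in the 4 miR652-KD and 4 NTC libraries; each symbol is 1 library and the bar is the mean with SD. In Smc1a the miR652-KD libraries all lie above the NTC libraries, and in the other 9 genes the groups overlap.

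Of the ring genes, Smc1a was the gene whose groups did not overlap. Smc1a (ENSMUSG00000041133.11, chromosome X, 152016428 to 152062694, mm10) encodes an ATPase arm of the ring. Replicates 1 to 4 of miR652-KD had 395.5, 355, 346 and 340.1 CPM, against 336.5, 302, 328 and 300.4 CPM in replicates 1 to 4 of NTC. The lowest miR652-KD library exceeded the highest NTC library by a margin smaller than the SD of either group. Means were 359 ± 24.9 CPM in miR652-KD and 317 ± 18.3 CPM in NTC (SD, n = 4 each). The log2 fold change was 0.19 (SE 0.09; 95% interval -0.01 to 0.38), a ratio of 1.14, and did not pass (edgeR, adjusted p = 0.848, unadjusted p = 0.06). Groups did not overlap for 4.5% of all tested genes, 2.35% with miR652-KD higher and 2.15% with it lower, so 1 of 10 genes is not set apart from that share. With upper-quartile scaling the log2 fold change was 0.21 at an unadjusted p of 0.0422 and an edgeR adjusted p of 0.826.

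Smc3 (ENSMUSG00000024974.10, chromosome 19, 53600398 to 53645833), the other ATPase arm, was the steadiest gene next to Smc1a. It stood at 183, 182, 192 and 169 CPM in miR652-KD and at 185, 175, 187 and 145 CPM in NTC and the ranges overlapped. The log2 fold change was 0.07 (SE 0.11; 95% interval -0.17 to 0.31). A processed pseudogene, Gm29763, matches 616 bases of the Smc3 coding sequence at 94.5% identity. It had 0 counts in the 8 libraries, where Smc3 had 22916. No such copy of at least 200 bases at 90% identity was found for the other 9 genes.

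Rad21 (ENSMUSG00000022314.10, chromosome 15, 51962240 to 51991747) encodes the kleisin subunit that closes the ring and is cut by separase at anaphase. It was at 62.5, 78.1, 124 and 51.6 CPM in miR652-KD and at 83.5, 87.1, 87.3 and 69.4 CPM in NTC. The miR652-KD libraries spanned 2.40-fold and held both the highest and the lowest value of the 8, while the NTC libraries spanned 1.26-fold. The log2 fold change of -0.05 (SE 0.25; 95% interval -0.61 to 0.50) turned to 0.05 without miR652-KD replicate 1 and to 0.10 without miR652-KD replicate 4. The high library, miR652-KD replicate 3, also had the highest summed level of G2 and M phase genes, 2275 CPM against 1028 to 1385 CPM in the other miR652-KD libraries and 817 to 1298 CPM in NTC. Other libraries did not follow this order. In miR652-KD replicate 4, the lowest in Rad21, the G2 and M sum was 1348 CPM, above every NTC library. NTC replicate 1 had the lowest sum, 817 CPM, with Rad21 at 83.5 CPM. The part of the cell cycle in the Rad21 level was not tested.

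The STAG subunits are alternative partners of the ring, and each complex holds either STAG1 or STAG2. Stag1 (ENSMUSG00000037286.15, chromosome 9, 100597798 to 100959375) stood at 45.0, 31.9, 59.9 and 51.0 CPM in miR652-KD and at 52.8, 44.2, 35.5 and 60.1 CPM in NTC. Stag2 (ENSMUSG00000025862.14, chromosome X, 42149317 to 42277185) stood at 76.5, 55.1, 67.4 and 61.0 CPM in miR652-KD and at 78.4, 90.03, 62.5 and 61.8 CPM in NTC. Neither separated the groups: the log2 fold change was -0.03 (SE 0.24) for Stag1 and -0.17 (SE 0.18) for Stag2. That of Stag1 changed sign without NTC replicate 1 (0.003), NTC replicate 4 (0.10) or miR652-KD replicate 2 (0.12). Stag2 took 62.9%, 63.3%, 52.9% and 54.5% of the Stag1 plus Stag2 reads in miR652-KD replicates 1 to 4 and 59.8%, 67.1%, 63.8% and 50.7% in NTC replicates 1 to 4. In every library more reads fell on Stag2 than on Stag1, and the mean share was 58.4% ± 5.49 in miR652-KD and 60.3% ± 7.10 in NTC (SD, n = 4 each).

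**Figure D2:**
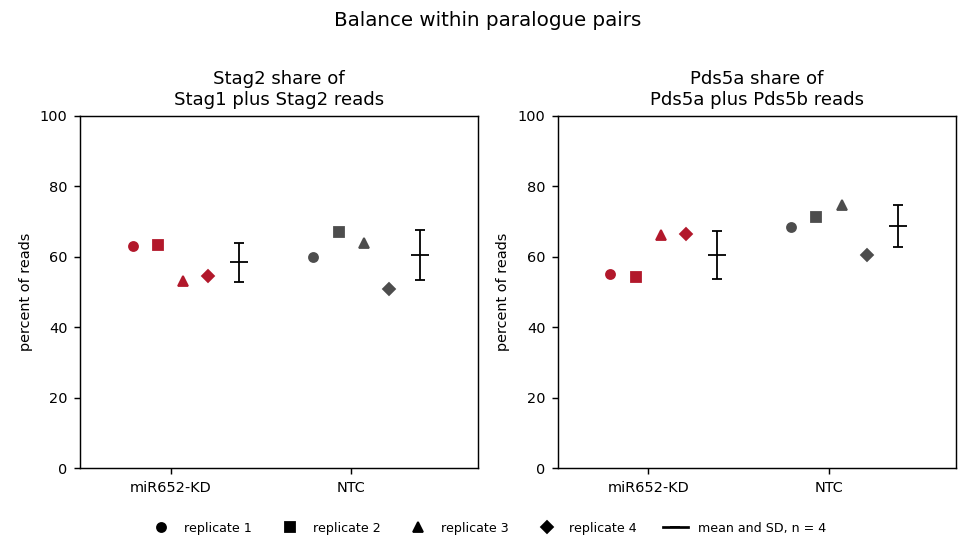
Share of reads (percent, vertical axes from 0 to 100) taken by Stag2 among Stag1 plus Stag2 and by Pds5a among Pds5a plus Pds5b; each symbol is 1 library and the bar is the mean with SD. Both shares overlap between groups, and the mean Pds5a share is 60.5% in miR652-KD and 68.7% in NTC.

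Nipbl (ENSMUSG00000022141.7, chromosome 15, 8290617 to 8444463) encodes the loader that places cohesin on DNA and drives its loop extrusion. It was at 201, 125, 219.8 and 169.5 CPM in miR652-KD and at 216, 241, 218 and 157 CPM in NTC. Replicate 2 of miR652-KD was the lowest of the 8 libraries, and the remaining ranges overlapped. The log2 fold change was -0.21 (SE 0.19; 95% interval -0.64 to 0.21), and -0.07 without miR652-KD replicate 2. Mau2, the partner of NIPBL in the loader, had a log2 fold change of 0.24 (SE 0.18), with 125 ± 30.2 CPM in miR652-KD and 106 ± 10.4 CPM in NTC (SD, n = 4 each).

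WAPL opens the ring and releases cohesin from chromatin, and the PDS5 proteins bind the ring beside it and take part in both release and protection. Wapl (ENSMUSG00000041408.18, chromosome 14, 34673928 to 34747983) stood at 114, 70.3, 102 and 109 CPM in miR652-KD and at 91.6, 114, 133 and 102 CPM in NTC. Replicate 2 of miR652-KD was again the lowest library, and without it the log2 fold change was -0.01 instead of -0.15 (SE 0.19). Pds5a (ENSMUSG00000029202.12, chromosome 5, 65605721 to 65698273) stood at 87.4, 79.2, 108 and 98.7 CPM in miR652-KD and at 111, 105, 94.0 and 103 CPM in NTC. Replicate 2 of miR652-KD was the lowest library here too, the groups overlapped, and the log2 fold change was -0.14 (SE 0.13; 95% interval -0.44 to 0.16).

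Pds5b (ENSMUSG00000034021.15, chromosome 5, 150673739 to 150810690) had the highest fitted fold change of the 10 genes. It stood at 71.1, 66.9, 55.3 and 49.6 CPM in miR652-KD and at 51.6, 42.5, 31.9 and 67.3 CPM in NTC. All 4 miR652-KD libraries exceeded the NTC median, but NTC replicate 4 lay above 3 of them. The log2 fold change was 0.34 (SE 0.24; 95% interval -0.21 to 0.88) and did not pass (edgeR, adjusted p = 0.965). Without NTC replicate 4 it was 0.55, at an unadjusted p of 0.0403 and an edgeR adjusted p of 0.885. Pds5a took 55.1%, 54.2%, 66.1% and 66.5% of the Pds5a plus Pds5b reads in miR652-KD replicates 1 to 4, and 68.3%, 71.2%, 74.7% and 60.5% in NTC replicates 1 to 4. The mean share was 60.5% ± 6.74 in miR652-KD and 68.7% ± 6.06 in NTC (SD, n = 4 each), and the groups overlapped. Reads are not scaled by length here. Per exonic length the mean share was 44.0% in miR652-KD and 52.9% in NTC. Per length of the coding transcript it was 55.7% in miR652-KD and 64.3% in NTC, and the groups overlapped by either length.

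Ctcf (ENSMUSG00000005698.15, chromosome 8, 105636568 to 105682922) encodes the zinc finger protein that binds insulators and halts loop extrusion. It stood at 93.1, 89.3, 120.0 and 91.5 CPM in miR652-KD and at 112, 97.2, 95.3 and 124 CPM in NTC. Of the miR652-KD libraries 3 lay below every NTC library, and replicate 3 lay above all NTC libraries but replicate 4. The log2 fold change was -0.12 (SE 0.15; 95% interval -0.44 to 0.20). Of the 4860 annotated exonic bases of Ctcf, 370 are shared with genes on the other strand (Agrp and Gm5914), and reads there cannot be told apart without strand. The shared part was 1.93% of exonic bases for Pds5a, 0.338% for Stag2 and 0 for the other 7 genes.

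The 10 genes together took 1330, 1133, 1394 and 1191 CPM in miR652-KD replicates 1 to 4 and 1318, 1298, 1273 and 1191 CPM in NTC replicates 1 to 4. The mean was 1262 ± 121 CPM in miR652-KD and 1270.0 ± 55.9 CPM in NTC (SD, n = 4 each), and both the highest and the lowest library were miR652-KD libraries. Fewer cells of a type and less RNA per cell cannot be told apart in such bulk samples. Within groups the SD of log2 CPM was lowest for Smc1a at 0.09 and highest for Rad21 at 0.39. Its median over the 10 genes was 0.25, where 4431 tested genes in the same range of levels had a median of 0.27. Counting error alone gives a coefficient of variation of 1.36% for Smc1a to 3.61% for Stag1. The coefficients observed within a group ran from 5.08% for Smc3 to 40.2% for Rad21 in miR652-KD, and from 5.77% for Smc1a to 31.1% for Pds5b in NTC, so counting error was smaller than the observed spread in each gene.

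Levels can be compared between genes per length, as CPM per kb of annotated exons. Smc1a was highest, at 62.3 ± 4.32 CPM per kb in miR652-KD and 54.9 ± 3.17 in NTC (SD, n = 4 each), and Smc3 followed at 32.8 ± 1.67 in miR652-KD and 31.3 ± 3.50 in NTC. The range of Smc1a over the 8 libraries did not overlap that of Smc3, nor that of Smc3 the range of Ctcf. Ctcf, Nipbl, Rad21 and Wapl came next, with means over the 8 libraries of 21.2, 20.5, 19.0 and 15.8 CPM per kb, and each overlapped its neighbour. Stag2, Pds5b, Pds5a and Stag1 were lowest, at 8.35, 5.54, 5.08 and 4.04 CPM per kb, and each overlapped its neighbour too. Annotated exons of Pds5a add up to 19335 bases, against 8934 bases for its main coding transcript. Per kb of the coding transcript, a setting chosen after seeing the data, the first 7 genes kept their places. The ranges of Smc3 and Ctcf then overlapped, with a lowest value of 29.97 for Smc3 and a highest of 32.9 for Ctcf. Pds5a moved up to the eighth place, at 10.4 CPM per kb in miR652-KD and 11.6 in NTC. By the same length Stag1 was at 7.59 in miR652-KD and 7.78 in NTC and Pds5b at 8.30 in miR652-KD and 6.61 in NTC, so the order of these 3 genes depends on the length used.

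**Figure D3:**
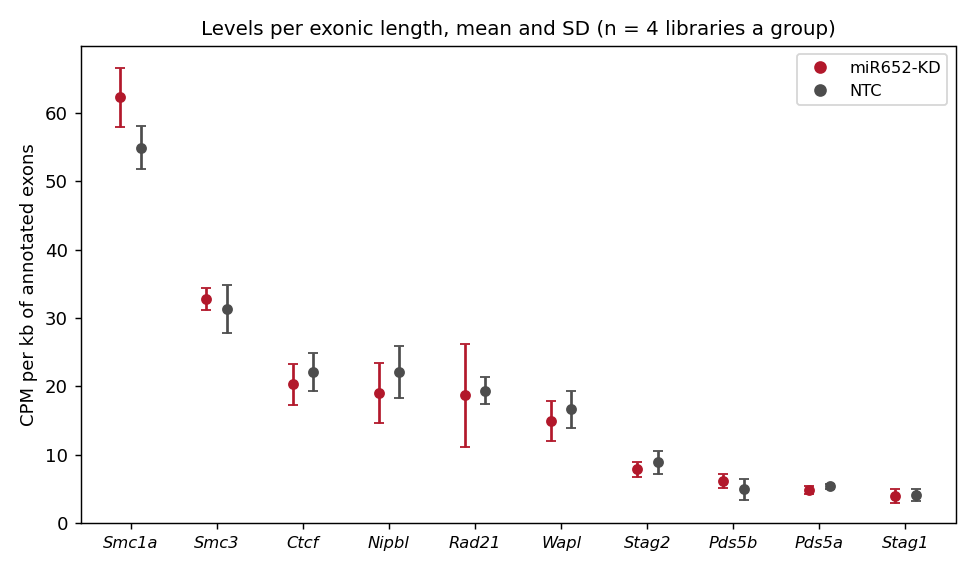
Level per length (CPM per kb of annotated exons, vertical axis from 0) of the 10 genes in miR652-KD and NTC; points are means and bars SD over 4 libraries. Smc1a at 62.3 and 54.9 and Smc3 at 32.8 and 31.3 stand above the 8 other genes in both groups.

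The 5 genes whose levels over the 8 libraries were most like the summed level of the 10 genes were Mtdh, Nvl, Nop53, Pnkd and Pgrmc1. Likeness was the root-mean-square difference of log2 CPM, each profile centred on its own mean, over 7707 protein-coding genes that averaged 20 CPM or more. It was 0.0672 for Mtdh, 0.0712 for Nvl, 0.0750 for Nop53, 0.0757 for Pnkd and 0.0777 for Pgrmc1 on the log2 scale. All of them share library and depth with the 10 genes, and the measure favours genes of small spread.

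Of 10 cohesin cofactors, which help to load, modify, protect or cleave the ring or hold back its cleavage, 0 passed the test, with 7 fitted above 0 and 3 below and a median log2 fold change of 0.24. Their groups overlapped in every gene. Cdca5, which encodes sororin, the protein that shields cohesin from WAPL after replication, was at 34.7, 47.7, 58.1 and 37.1 CPM in miR652-KD and at 16.9, 16.8, 37.8 and 23.5 CPM in NTC. Only NTC replicate 3 reached the range of the miR652-KD libraries. Its log2 fold change of 0.90 (SE 0.31; 95% interval 0.21 to 1.59) did not pass over all genes (edgeR, adjusted p = 0.779, unadjusted p = 0.0159), and 1 of 10 cofactors below an unadjusted 0.05 compares with 5.99% of all genes. Esco2, the acetyltransferase of SMC3 in S phase, was at 14.8, 9.85, 47.0 and 28.3 CPM in miR652-KD and at 14.3, 11.4, 18.7 and 2.32 CPM in NTC, a log2 fold change of 1.101 (SE 0.64) with wide overlap. Esco1, the acetyltransferase active through interphase, had a log2 fold change of -0.24 and Hdac8, the SMC3 deacetylase, one of 0.46. The values were 0.24 for the centromere protector Sgo1, 0.25 for Sgo2a, 0.24 for the separase inhibitor Pttg1, -0.54 for the separase gene Espl1 and -0.35 for the mitotic kinase Haspin. Adjusted p of these 7 genes was at least 0.982 (edgeR). Kctd18, on the other strand, shares 35.0% of the exonic bases of Sgo2a.

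**Figure D4:**
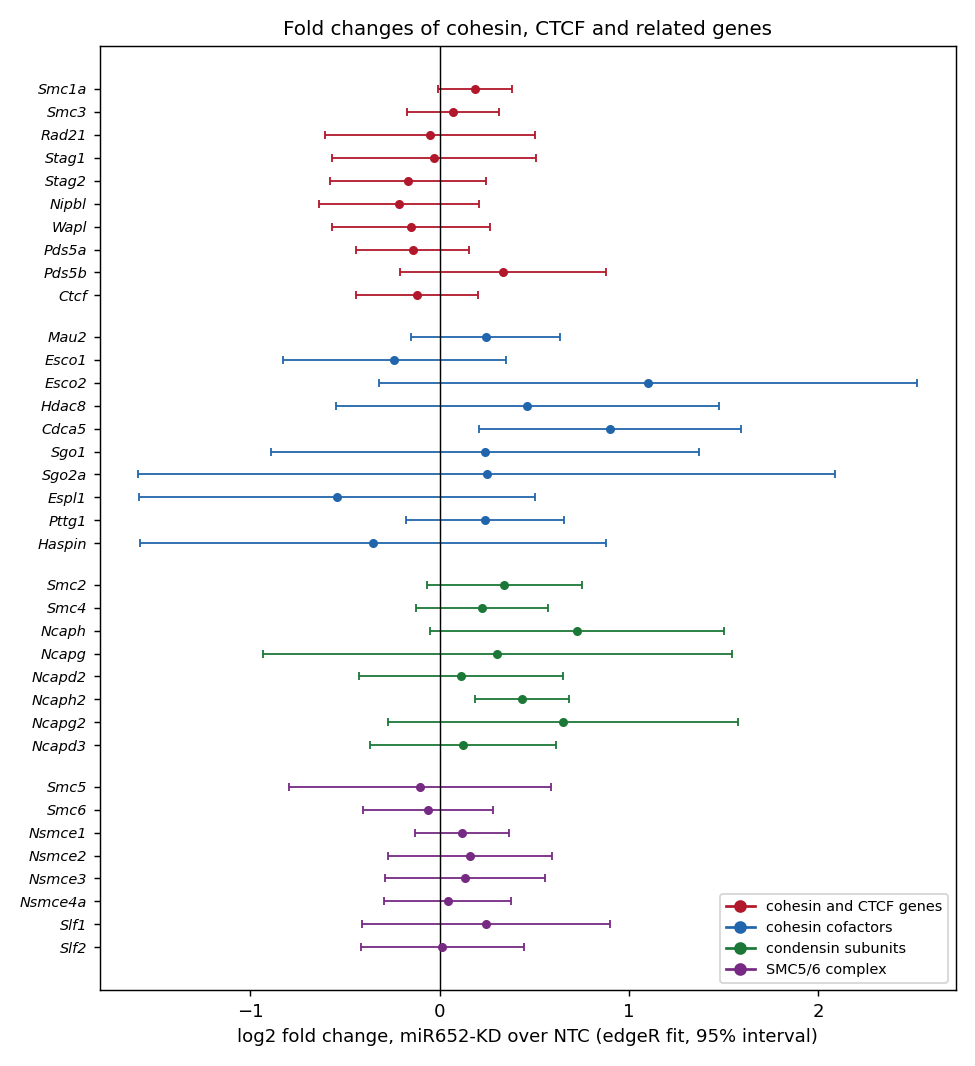
Log2 fold change, miR652-KD over NTC, of the 10 cohesin and CTCF genes and of the cofactor, condensin and SMC5/6 lists; points are edgeR estimates and bars their 95% intervals. The 10 genes at the top lie between -0.21 and 0.34 with intervals that all include 0, and all 8 condensin genes lie above 0.

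Of 8 condensin genes, which encode the related SMC complex that compacts mitotic chromosomes, 0 passed, and 8 were fitted above 0 with a median log2 fold change of 0.32. Their summed level was 658, 652, 819 and 682 CPM in miR652-KD replicates 1 to 4 and 611, 558, 579 and 521 CPM in NTC replicates 1 to 4. The groups did not overlap in this sum, but of the 8 genes taken singly only Ncaph2 lacked overlap. In replicate 1, Ncaph2 made up 253 of 658 CPM in miR652-KD and 162 of 611 CPM in NTC. Without Ncaph2 the sum of miR652-KD replicate 1 lay below that of NTC replicate 1, so the groups overlapped. The 1 of 8 genes without overlap and higher in miR652-KD compares with 2.35% of all tested genes. Ncaph2, a condensin II subunit, was at 253, 207, 193 and 211 CPM in miR652-KD and at 162, 154, 159 and 166 CPM in NTC. Its log2 fold change of 0.44 (SE 0.11) did not pass (edgeR, adjusted p = 0.606), and 19.7% of its exonic bases are shared with Sco2 and Tymp on the other strand. Ncaph, of condensin I, followed at 0.72 (SE 0.35; edgeR adjusted p = 0.859). The G2 and M phase list, with 25 genes, had 23 fitted above 0, a median of 0.69 and 0 passed, though 12 of 25 were below an unadjusted edgeR p of 0.05, where all genes gave 5.99%. The same count was 5 of 23 for the S phase list and 1 of 8 for condensin. Anln at 1.33 and Ckap2l at 1.16 had the smallest p in the G2 and M phase list. The S phase list, with 23 genes, had 17 above 0, a median of 0.23 and 0 passed, with Pola1 at 0.77 and Chaf1b at -0.33 of smallest p. The part of cycling cells in the condensin levels was not tested.

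**Figure D5:**
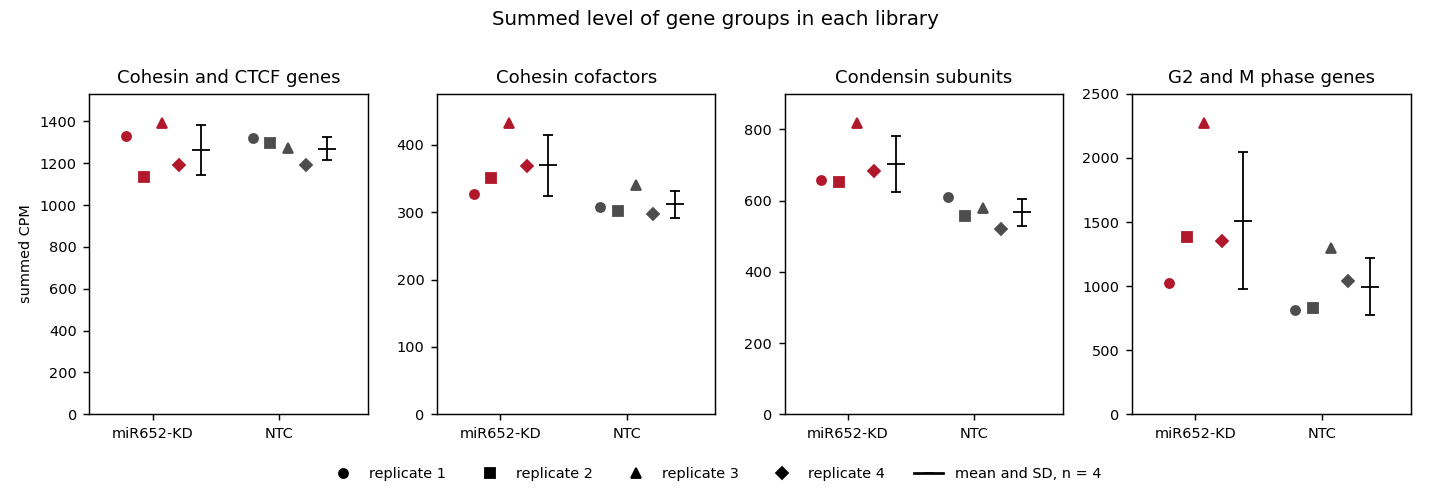
Summed CPM (vertical axes, from 0) of the 10 cohesin and CTCF genes, the cofactors, the condensin subunits and the G2 and M phase genes; each symbol is 1 library and the bar is the mean with SD. The cohesin and CTCF sum spans 1133 to 1394 CPM in miR652-KD and 1191 to 1318 CPM in NTC. The condensin sum is at least 652 CPM in miR652-KD and at most 611 CPM in NTC. Of the condensin genes taken singly, only Ncaph2 lacks overlap, and without Ncaph2 the sums of the groups overlap.

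Of 8 genes of the SMC5/6 complex, which acts in DNA repair, 0 passed, 6 were above 0 and the median was 0.08, with Nsmce1 at 0.12 and Nsmce2 at 0.16 the members of smallest p. Of 8 partner and looping factors of CTCF 7 were tested, 0 passed, 3 were above 0 and the median was -0.09. Yy1, which bridges enhancers and promoters, was at 0.34 (SE 0.19) and Vezf1 at -0.25 (SE 0.17). Adnp was not tested, and 82.1% of its exonic bases are shared with another annotated gene. Among the paralogues of the germ line, Rec8, a meiotic kleisin, was the 1 gene tested, at 83.7 ± 28.0 CPM in miR652-KD and 97.4 ± 22.1 CPM in NTC (SD, n = 4 each) with a log2 fold change of -0.21. Rad21l and Ctcfl had 0 counts in every library, which allows at most 0.151 to 0.214 CPM per library for counting error alone. Smc1b and Stag3 reached at most 2.07 and 3.16 CPM in any library.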

How the data were processed

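Smart-seq2 was used, per the labels' protocols. Each deposited file gives 1 library as raw counts of reads by gene. The submitters' processing notes name mm10, DESeq2, HTSeq 0.11.2 and HISAT2 2.1.0. For the annotation release and strandedness the sources used here give nothing. In each file there are 55487 genes and 5 summary lines, which were left out of totals and tests. Reads outside genes made up 9.69% to 16.9% and ambiguous reads 8.94% to 12.3% of each file. Identifiers were matched without version to GENCODE M21 (55394 found).

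The test was edgeR 4.0.16 in R 4.3.3 (TMM, filterByExpr with minimum count 10 and total 15, robust quasi-likelihood, group only), with Benjamini-Hochberg below 0.05. SE is the log2 fold change over the square root of F. Alternatives used DESeq2 1.42.0, limma 3.58.1 and other scalings, filters and libraries. Spread and likeness used log2(CPM + 1). Copies were searched with BLAST 2.17.0, from the longest coding sequence of each of the 10 genes against GENCODE M21 transcripts. The 10 genes and all lists were chosen with earlier results of these data known. Named genes were the 10 genes, all cofactors, the 2 of smallest p in each other list where none passed, and the 5 most alike in profile. Smart-seq2 has no molecular identifiers, so limits from counts cover counting error only.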

Additional observations from a re-analysis of the deposited data

Results flagged for a closer look

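A value was taken as far from its group when its gap to the nearest of the other 3 libraries exceeded Dixon's 95% critical share of the group's whole range, which chance gives in about 5% of groups. Of 96 groups examined, 5 did so, or 5.21%. Ctcf in miR652-KD replicate 3 was at 120.0 CPM, against 89.3 to 93.1 CPM in the other miR652-KD libraries. Esco1 in NTC replicate 2 was at 69.5 CPM, against 37.4 to 42.2 CPM in the other NTC libraries. Ckap2l in NTC replicate 3 was at 15.8 CPM, against 12.3 to 12.8 CPM. Chaf1b in NTC replicate 1 was at 159.5 CPM, against 209 to 219 CPM. Reads outside annotated genes made up 16.9% of the file of NTC replicate 1, against 10.4% to 11.3% of the other NTC files.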

How the results depend on the processing

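The count of 0 of the 10 genes past the threshold held under all 18 alternatives. Over all genes the count of 6 fell to 0 with the replicate block (733 genes at an unadjusted p below 0.05), without any single library (0 to 0; 789 to 992 genes) and without NTC replicates 3 and 4 together (884 genes), and was 61 with DESeq2. The replicate numbers did not pair the libraries: same-numbered libraries had correlations of -0.05 to -0.01 in their deviations from the group means, 0 of 4 correlated best with their own number, and the replicate block moved no call of the 10 genes. Fitted directions turned in 9 cases, none of them past the threshold. Leaving out single libraries, the log2 fold change was -0.35 to 0.10 for Rad21, -0.16 to 0.12 for Stag1 (0.10 without NTC replicate 4), -0.35 to 0.028 for Esco1, -0.24 to 0.70 for Sgo1 and -0.061 to 0.63 for Sgo2a. Haspin was at 0.0034 without NTC replicates 3 and 4 together. The cause was not tested. Leaving out single libraries, the median of the 10 genes was -0.17 to -0.03, that of the cofactors 0.10 to 0.39, of condensin 0.18 to 0.43, of G2 and M phase genes 0.42 to 0.87 and of S phase genes 0.04 (without miR652-KD replicate 1) to 0.32. That of the CTCF partner list was -0.16 to 0.07, turning sign without NTC replicate 1 (0.07) or miR652-KD replicate 2 (0.02) or 4 (0.01), and it was -0.25 without NTC replicates 3 and 4 together. With any annotated 3′ UTR the share of genes with a seed match was 3.11% for the 3p arm and 9.47% for the 5p arm, by construction of the wider set. Counting error was below the observed spread in each of the 10 genes.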
